A study of Mus musculus with 5 samples.

Results

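The fat genes examined here are Ucp1, Cidea, Cidec, Adipoq, Cfd, Fabp4, Lpl, Pparg, Adrb3 and Lipe, a list of 10 genes known from brown and white adipose tissue. Members were all probe sets (groups of short oligonucleotides for 1 transcript) whose platform annotation gave exactly 1 gene symbol that matched a listed gene or an older name of it. This gave 10 probe sets of 8 genes among 12422 probe sets, whose annotation names 8251 genes by a single symbol. Ucp1 and Lpl had 2 probe sets each and the other 6 genes 1 each. Cfd and Adrb3 matched none and were not analysed here. The RNA was total RNA labelled as lung, measured on 5 Affymetrix mouse arrays. IL-13 (interleukin-13, a cytokine of T helper 2 cells) had been given into the trachea of A-J mice for 3 arrays, whose titles carry the numbers 6, 18 and 48. Saline had been given by the same route to A-J mice for the other 2 arrays, numbered 6 and 48. The labels give no unit for these numbers, no dose or age, and no count of animals per array, and each array is named here by its treatment and title number. Each combination of treatment and number had 1 array, and nothing in the labels says that arrays came from separate animals. The p-values below therefore weigh the treatment difference only against variation between these arrays, estimated in part from other probe sets. They cannot speak for variation between animals.

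Adipocytes store triglyceride in lipid droplets and release it as fatty acids. White adipocytes hold a large droplet and secrete hormones such as adiponectin, while brown adipocytes hold many small droplets and burn fatty acids to make heat through the mitochondrial proton carrier Ucp1. Mice carry fat in the chest and neck, including brown fat around the large vessels, and the lung itself has cells that express some of these genes, since alveolar macrophages use Pparg, Fabp4 and Lpl and capillary endothelium uses Fabp4. Although the labels name lung, skeletal muscle transcripts were bright on every array and the surfactant gene Sftpc was low on IL-13 6, IL-13 48 and saline 48 (values below), and whether the RNA came from lung alone was not tested. The fat gene values therefore cannot be assigned to lung cells. In bulk RNA, fewer cells of a type and less RNA per cell cannot be told apart.

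Ucp1 and Adipoq mark brown adipocytes and adipocytes of every kind. Cidec codes for a lipid droplet protein and Pparg for the nuclear receptor that drives adipocyte formation. The promoters of Ucp1, Adipoq, Cidec and Pparg are printed as examples from genes that shared their highest array (given with the values below). Each runs from 250 bases before to 50 after a RefSeq transcript start in build GRCm38.p6, and is written 5′ to 3′ on the gene's strand. Cidec has 2 such starts in the table and Pparg 3, and the ones with a C/EBP motif are shown. Capitals mark the nuclear receptor core motif AGGTCA, the C/EBP motif TTGCNNAA and the cAMP response core motif TGACG, searched on both strands.
Ucp1, chr8:83290098-83290397, plus strand: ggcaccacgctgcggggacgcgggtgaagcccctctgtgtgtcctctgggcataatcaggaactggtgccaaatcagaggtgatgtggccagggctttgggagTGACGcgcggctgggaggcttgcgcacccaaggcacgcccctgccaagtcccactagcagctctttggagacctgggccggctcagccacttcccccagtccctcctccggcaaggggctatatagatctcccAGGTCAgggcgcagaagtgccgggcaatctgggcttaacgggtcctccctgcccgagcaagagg
Adipoq, chr16:23146286-23146585, plus strand: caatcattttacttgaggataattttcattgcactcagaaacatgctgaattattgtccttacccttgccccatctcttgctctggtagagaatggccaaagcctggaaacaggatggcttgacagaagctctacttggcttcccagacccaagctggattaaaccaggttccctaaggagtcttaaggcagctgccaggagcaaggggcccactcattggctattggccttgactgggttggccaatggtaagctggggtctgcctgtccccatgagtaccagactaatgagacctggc
Cidec, chr6:113434715-113435014, minus strand: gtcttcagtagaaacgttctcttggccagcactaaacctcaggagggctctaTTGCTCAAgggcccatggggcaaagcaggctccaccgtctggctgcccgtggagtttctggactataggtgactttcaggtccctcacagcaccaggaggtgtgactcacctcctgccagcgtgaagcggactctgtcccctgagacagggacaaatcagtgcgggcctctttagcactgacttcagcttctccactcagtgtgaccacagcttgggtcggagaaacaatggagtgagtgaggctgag
Pparg, chr6:115421816-115422115, plus strand: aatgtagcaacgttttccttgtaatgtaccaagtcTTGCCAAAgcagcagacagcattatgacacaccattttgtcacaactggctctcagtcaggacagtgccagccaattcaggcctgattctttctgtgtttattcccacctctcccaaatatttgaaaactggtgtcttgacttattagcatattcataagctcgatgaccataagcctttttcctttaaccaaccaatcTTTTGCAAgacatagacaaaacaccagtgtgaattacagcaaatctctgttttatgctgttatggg
The Ucp1 window held TGACG at position -147 and AGGTCA at position -14, counted from the start. AGGTCA was found in 16.3% and TGACG in 20.8% of the 32851 promoter windows of the table. The Cidec window held TTGCNNAA at position -198 and the Pparg window held it at positions -215 and -16, a motif of 10.8% of windows. Both windows were picked for holding it, so that share is no comparison for them. The other Cidec window, not printed, held none of the 3 marked motifs. The Adipoq window held none of these 3 motifs, which says only that the letters are not in this window. The 2 other Pparg windows, not printed, each held AGGTCA, at positions -28 and -9. RefSeq windows were matched for 5 of the 8 measured genes. Lipe, also highest on saline 6, was the matched gene not printed, and its 2 windows held none of the 3 marked motifs. A match is a description of the sequence and was not related to any measured binding.

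Fat transcripts were above the floor on every array, and saline 6 was the highest array for all but 1 of their probe sets. All values are intensities scaled to a common trimmed mean, and the 10 probe sets ranged from 215.7 (Pparg on IL-13 18) to 16473 (Ucp1 on saline 6). No member fell below 55.3, the floor below which values were not ordered, and all 10 passed the filter on low values. Of the 10 probe sets, 9 were highest on saline 6, where 21.6% of all 7811 probe sets tested were. The exception was the Lpl probe set 160083_at, highest on saline 48, as were 20.3% of all tested. None of the 10 was highest on an IL-13 array, while IL-13 6 was the highest array for 19.6% of all tested, IL-13 18 for 19.9% and IL-13 48 for 18.5%. The lowest array was IL-13 18 for 5 members (17.3% of all tested), IL-13 6 for 3 (18.4%) and IL-13 48 for 2 (13.9%). No member was lowest on saline 6, as 32.0% of all tested were, or on saline 48 (18.4%). With each probe set centred on its own mean over the arrays, the members had a median log2 value of -0.24 on array IL-13 6, of -0.45 for IL-13 18 and of -0.19 for IL-13 48, against 0.83 for saline 6 and -0.018 for saline 48. The same median over all probe sets tested lay between -0.05 on saline 6 and 0.03 on IL-13 48.

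**Figure D1:**
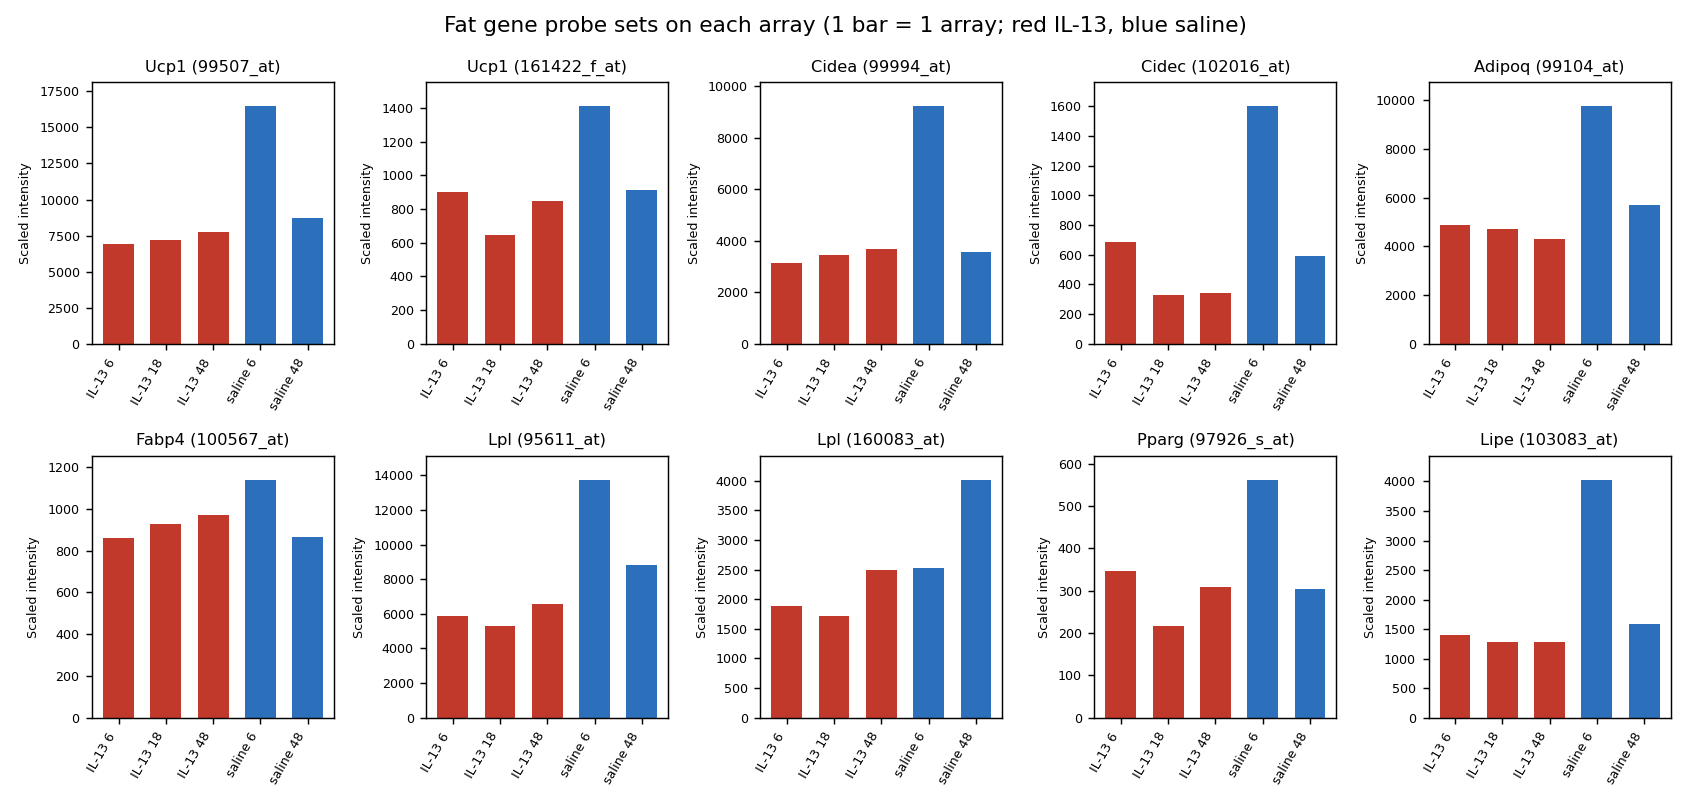
Scaled intensity (linear axis from 0, a scale of its own in each panel) of the 10 fat gene probe sets, with 1 bar per array, IL-13 arrays in red and saline arrays in blue. The bar of saline 6 is the tallest in 9 panels, and the Lpl probe set 160083_at has its tallest bar on saline 48 (4016).

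Of the genes of heat production, Ucp1 read 6897, 7216 and 7776 on IL-13 6, 18 and 48, against 16473 on saline 6 and 8702 on saline 48 (99507_at). No IL-13 array reached either saline array, but saline 48 stood only 1.12-fold above IL-13 48. Ucp1 averaged 7296 ± 445 (SD, n = 3) with IL-13 and 12588 ± 5495 (SD, n = 2) with saline, a log2 difference of -0.72 (SE 0.28, limma adjusted p 0.531). The second Ucp1 probe set, 161422_f_at, whose ending marks probes that related transcripts may share, read 901.2, 645.2 and 846.1 with IL-13 and 1411 and 911.3 on saline 6 and saline 48. It had the same order of treatments, with a log2 difference of -0.52 (SE 0.26, limma adjusted p 0.601), and IL-13 6 and saline 48 were 1.01-fold apart. Cidea, a lipid droplet protein abundant in brown fat, read 3124, 3465 and 3669 with IL-13 and 9236 and 3580 with saline 6 and saline 48. Its IL-13 arrays overlapped saline 48, and saline 6 stood 2.52-fold above the next highest array, IL-13 48. Its log2 difference was -0.75 (SE 0.39, limma adjusted p 0.617).

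Cidec, which fuses lipid droplets in white adipocytes, had the widest range of the members, 4.9-fold between saline 6 and IL-13 18. It read 684.8, 326.6 and 340.0 on IL-13 6, 18 and 48, and 1600.4 and 588.0 on saline 6 and saline 48. IL-13 6 lay above saline 48, so the treatments overlapped, and the log2 difference was -1.20 (SE 0.50, limma adjusted p 0.544). Adipoq, the hormone adiponectin, read 4879, 4722 and 4288 with IL-13 and 9753 and 5684 with saline 6 and saline 48, with no overlap. It averaged 4629 ± 306 (SD, n = 3) with IL-13 and 7718 ± 2877 (SD, n = 2) with saline, and the log2 difference was -0.69 (SE 0.26, limma adjusted p 0.531). For both genes the spread between the 2 saline arrays was wider than that among the 3 IL-13 arrays.

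Among the genes of fatty acid handling, Lpl and Lipe had no overlap of treatments, while Fabp4 varied little. Lpl codes for the lipoprotein lipase, which frees fatty acids from triglyceride in blood. It read 5888, 5274 and 6560 with IL-13 and 13745 and 8804 with saline 6 and saline 48 on 95611_at. That probe set had the lowest p of the members, with a log2 difference of -0.90 (SE 0.24, limma adjusted p 0.388). Its other probe set, 160083_at, read 1884, 1708 and 2495 with IL-13 and 2523 and 4016 with saline 6 and saline 48, a log2 difference of -0.67 (SE 0.27, limma adjusted p 0.531). The Lpl probe sets thus both placed IL-13 below saline throughout and disagreed on which saline array was higher. Lipe, the hormone-sensitive lipase that breaks down stored fat, read 1403, 1288 and 1272 with IL-13 and 4028 and 1582 with saline 6 and saline 48. Its log2 difference was -0.94 (SE 0.38, limma adjusted p 0.531), and without saline 6 its 4 remaining arrays lay within 1.24-fold of each other. Fabp4, the fatty acid carrier of adipocytes, read 862.3, 928.8 and 970.8 with IL-13 and 1139 and 866.0 with saline 6 and saline 48. It had the smallest range of the members, 1.32-fold, its treatments overlapped, and its log2 difference was -0.11 (SE 0.19, limma adjusted p 0.893).

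Pparg, the nuclear receptor of adipocyte formation, was measured by a probe set whose probes may be shared (97926_s_at). It read 347.3, 215.7 and 308.9 with IL-13 and 562.4 and 303.2 with saline 6 and saline 48. Only saline 6 stood apart, 1.62-fold above IL-13 6, and the log2 difference was -0.54 (SE 0.33, limma adjusted p 0.677).

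The comparison of IL-13 with saline asks which transcripts differ after the cytokine was put into the airway. None of the 10 fat gene probe sets passed the limma test at an adjusted p of 0.05, and 5 had an unadjusted p below 0.05. Over all 7811 probe sets tested 4 passed (0.0512%), 1 higher (0.0128%) and 3 lower (0.0384%) with IL-13, and 723 had an unadjusted p below 0.05. The mean of all 10 members was lower with IL-13, with a median log2 difference of -0.70, beside 0.04 over all probe sets tested. For 6 of the 10 (both of Ucp1, Adipoq, both of Lpl, and Lipe) every IL-13 array lay below saline 6 and saline 48, as it did for 11.0% of all probe sets tested. No member had every IL-13 array above saline 6 and saline 48, beside 14.7%. The members' lower means rest mostly on saline 6: the median was -0.26 without saline 6 and -1.13 without saline 48. Without saline 6, the log2 difference was -0.26 for Ucp1 (99507_at), -0.30 for Adipoq, -0.26 for Lipe, -0.07 for Cidea and -0.47 for Cidec, while Lpl kept -0.58 (95611_at) and -1.004 (160083_at) and Fabp4 was at 0.09. Without saline 48, all 10 members had all IL-13 arrays below saline 6, as 26.5% of all probe sets tested had. Without saline 6 the count below saline 48 was 6 of 10, where the share over all probe sets tested was 26.4%. Leaving out an IL-13 array gave 7 of 10 without IL-13 6 (18.1%), 6 without IL-13 18 (14.8%) and 7 without IL-13 48 (15.8%).

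The matched arrays of 1 title number showed different sizes of difference. On IL-13 6 all 10 members were lower than on saline 6, with a median log2 difference of -1.11 (0.05 over all probe sets tested). Of the 10 members, 5 were at least 2-fold lower on IL-13 6, beside 2.14% of 12422 probe sets, and none was 2-fold higher (1.84%). They were Cidea (2.96-fold lower), Lipe (2.87-fold), Ucp1 on 99507_at (2.39-fold), Cidec (2.34-fold) and Lpl on 95611_at (2.33-fold), beside Adipoq just short of the threshold at a log2 difference of -0.999. On IL-13 48, by contrast, no member was 2-fold apart from saline 48, where 1.09% of probe sets were at least 2-fold lower and 0.596% higher, and 7 members were lower and 3 higher. The differences at 48 lay between -0.79 (Cidec) and 0.16 (Fabp4) on the log2 scale. A pair of 1 array against 1 has no test, and whether the pairs differ was not tested.

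The saline arrays also differed from each other. Saline 48 was lower than saline 6 for 9 of 10 members, with a median log2 difference of -0.84 (0.06 over all probe sets tested). Of the members, 3 were at least 2-fold lower on saline 48 (Cidec 2.72-fold, Cidea 2.58-fold, Lipe 2.55-fold), beside 1.64% of all probe sets, and none was 2-fold higher (1.63%). Lpl on 160083_at was 1.59-fold higher on saline 48. With saline 48 in place of saline 6 as the control of IL-13 6, only Lpl on 160083_at remained at least 2-fold lower (2.13-fold, beside 1.19% of probe sets lower and 1.03% higher), and Cidec was 1.16-fold higher. With saline 6 as the control of IL-13 48, 6 members were at least 2-fold lower, led by Cidec at 4.71-fold, beside 2.37% of probe sets lower and 2.16% higher. IL-13 18 has no saline array of its own number. Against saline 6 it had 8 members at least 2-fold lower (2.2% of probe sets, 2.12% higher) and a median log2 difference of -1.29, and against saline 48 it had 1 (0.91%, with 1.22% higher) and a median of -0.39.

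**Figure D2:**
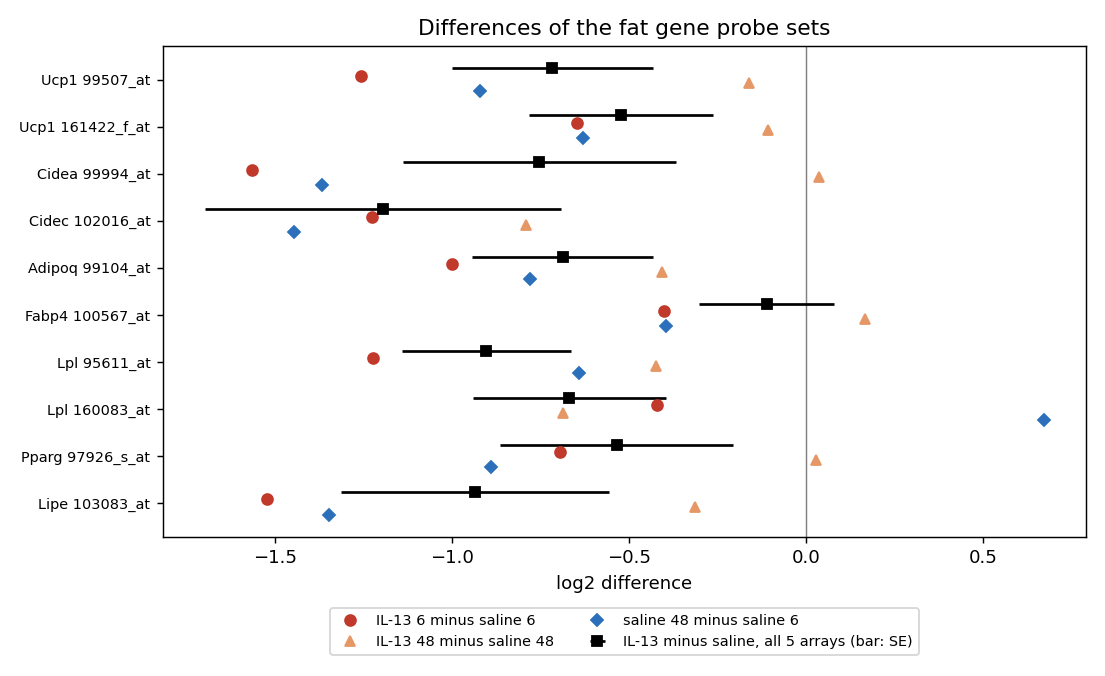
Log2 differences of the 10 fat gene probe sets, with the limma estimate over all 5 arrays (black squares, bars show its SE), the pair at title number 6 (red circles), the pair at 48 (orange triangles) and saline 48 minus saline 6 (blue diamonds). The circles lie left of the triangles for 9 probe sets, and the diamonds lie left of 0 for every probe set but Lpl 160083_at.

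The arrays also differed in transcripts of other tissues, and saline 6 stood apart in several of them. The salivary gland gene Smr3a read 22.8, 28.6 and 16.4 with IL-13 and 23003 and 12.2 on saline 6 and saline 48. The atrial myosin gene Myl7 read 224.8, 3321.5 and 192.3 on IL-13 6, 18 and 48, and 7554 and 129.9 on saline 6 and saline 48. Smr3a and Myl7 were thus highest on saline 6, like 9 of the 10 fat gene probe sets, and IL-13 18, with the second highest Myl7, had the lowest level of 5 fat gene probe sets. Of markers of the labelled tissue, the club cell gene Scgb1a1 was bright on every array, from 22685 to 31029 with IL-13 and at 29168 and 22019 with saline 6 and saline 48. The surfactant gene Sftpc of alveolar type II cells read 257.2, 17169 and 300.4 on IL-13 6, 18 and 48, and 2617 and 194.2 on saline 6 and saline 48. Sftpc was thus within 1.5-fold of the filter value of 210 on IL-13 6, IL-13 48 and saline 48, while Ager, a gene of alveolar type I cells, read 2082, 4926 and 2018 with IL-13 and 1873 and 2127 on saline 6 and saline 48. The skeletal muscle actin gene Acta1 was also bright throughout, from 11565 to 26561 with IL-13 and at 21734 and 13537 with saline 6 and saline 48.

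Brown adipocyte markers (6 of 6 matched) summed to between 21660 and 22988 on the IL-13 arrays, and to 43065 and 22690 on saline 6 and saline 48. A large part came from Cox8b, at 7895, 6865 and 7514 with IL-13 and 11662 and 6634 on saline 6 and saline 48. Cox7a1 added 3432, 3628 and 3560 with IL-13 and 5067 and 3262 on saline 6 and saline 48. How much of the Cox8b and Cox7a1 signal came from muscle was not tested. Adipocyte markers (6 of 8 matched) summed to between 8398 and 10358 with IL-13, and to 18224 and 10402 on saline 6 and saline 48. Both sums thus put saline 6 above every other array, with saline 48 close to the IL-13 arrays. In the brown list, the elongase gene Elovl3 read 15.7, 93.0 and 51.1 with IL-13 and 70.3 and 60.6 on saline 6 and saline 48. It was thus highest on IL-13 18 and below the floor on IL-13 6 and IL-13 48, while Ucp1, Cidea, Dio2, Cox8b and Cox7a1 were highest on saline 6. In the adipocyte list, Lep was lowest on saline 6 (931.7), while Adipoq, Fabp4, Lipe, Cidec and Retn were highest there. No marker of either list was at 0. Salivary gland markers (5 of 5) summed to between 443.1 and 574.2 with IL-13, and to 87593 and 460.2 on saline 6 and saline 48, with 4 of 5 below the floor on every array but saline 6. Heart muscle markers (5 of 5) summed to between 11489 and 19919 with IL-13, and to 24596 and 10659 on saline 6 and saline 48. All 5 salivary gland markers were highest on saline 6. Of the heart markers, Myh6, Myl7 and Nppa were highest on saline 6, while the actin gene Actc1, which made up most of the sum on every array but saline 6, read 16254, 13041 and 10524 with IL-13 and 10248 and 9835 on saline 6 and saline 48. Sln, a regulator of the muscle calcium pump, was also highest on IL-13 6 (252.5, against 150.9 on saline 6). Thymocyte markers (5 of 5) summed to between 1593 and 3941 with IL-13, and to 4345 and 6220.5 on saline 6 and saline 48, highest on saline 48. Dntt, Ptcra, Cd8b1 and Ccr9 had that highest array, while Rag1 was highest on IL-13 18 (898.4) and lowest on saline 6 (532.4). Alveolar macrophage markers (4 of 5) summed to between 3483 and 8983.5 with IL-13, and to 1567 and 849.9 on saline 6 and saline 48. That order came from Chil3, a chitinase-like protein gene of macrophages, which read 2566, 7591 and 3181 with IL-13 and 388.2 and 91.98 on saline 6 and saline 48. Without Chil3, a sum chosen after the values were seen, the list came to 916.5, 1392 and 863.7 with IL-13 and 1179 and 757.9 on saline 6 and saline 48, with overlap. The scavenger receptor gene Marco was highest on saline 6 (425.2), at 96.2 on IL-13 48, and below the floor on IL-13 6, IL-13 18 and saline 48. Lung epithelium markers (4 of 5) summed to 31590, 43361 and 23236 on IL-13 6, 18 and 48, and to 32138 and 22439 on saline 6 and saline 48, with overlap and mostly from Scgb1a1. Endothelial markers (5 of 5) summed to between 4205 and 5664 with IL-13, and to 5541 and 4356 on saline 6 and saline 48. Within that list Pecam1 read 701.9, 481.4 and 474.9 with IL-13 and 252.5 and 159.6 on saline 6 and saline 48. Its IL-13 arrays were all above both saline arrays, while treatments overlapped for Cdh5, Tek, Tie1 and Kdr. Skeletal muscle markers (5 of 5) summed to between 55861 and 76568 with IL-13, and to 67516 and 51313 on saline 6 and saline 48, with overlap. The part of these tissues in the fat gene differences was not tested.

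**Figure D3:**
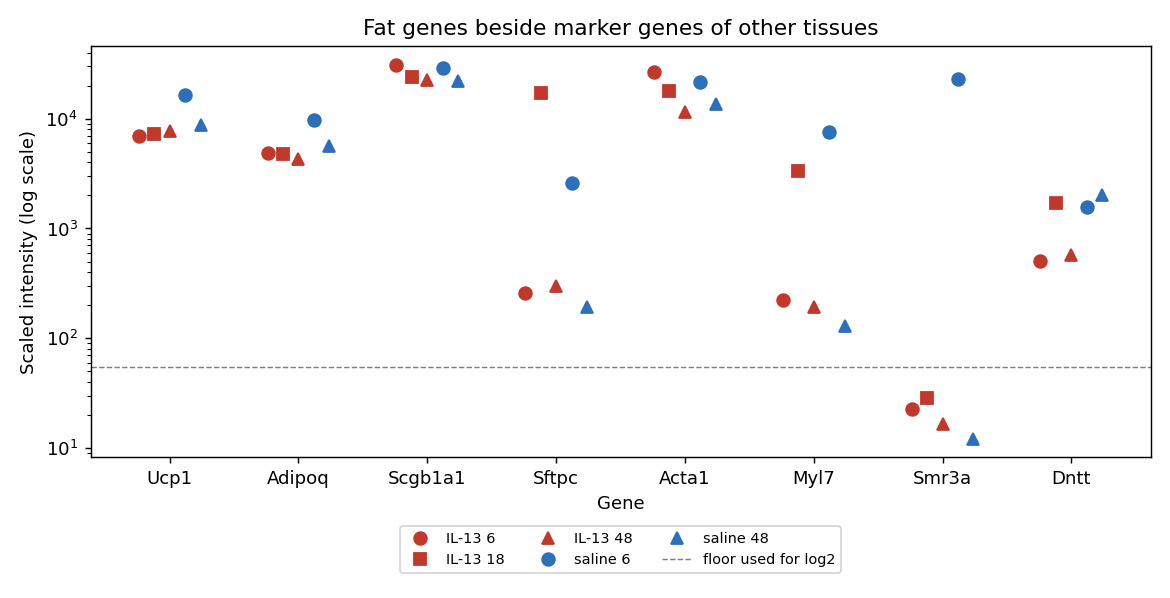
Scaled intensity (log axis) on each array of 2 fat genes (Ucp1, Adipoq) and of marker genes of club cells (Scgb1a1), alveolar type II cells (Sftpc), skeletal muscle (Acta1), heart atrium (Myl7), salivary gland (Smr3a) and thymocytes (Dntt), IL-13 arrays in red and saline arrays in blue. Smr3a is above the floor of 55.3 on saline 6 alone, and Sftpc is highest on IL-13 18 (17169).

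Most other genes of fat metabolism that were tested had saline 6 as their highest array, as most members did. The 5 lists of such genes held 117 genes, of which 92 were matched and 79 passed the filter on low values. No gene of these lists passed the limma test in either direction, 66 of 79 had a lower mean with IL-13 and 13 a higher one. An unadjusted p below 0.05 was found for 6 of the 79 (7.59%), below the 9.26% of all probe sets tested. For 13 of the 79 (16.5%) every IL-13 array lay below saline 6 and saline 48, beside 11.0% of all probe sets tested. For 2 (2.53%), Dlk1, an inhibitor of adipocyte formation, and Ckmt2, a mitochondrial creatine kinase, named after their values were seen, every IL-13 array lay above both, beside 14.7%. Their median log2 difference was -0.29, beside 0.04 over all probe sets tested. Of the 79, 56 (70.9%) were highest on saline 6, beside 21.6% of all probe sets tested. Their median was -0.43 in the pair at 6 and -0.09 in the pair at 48, and -0.50 between saline 48 and saline 6. The lists were chosen with earlier results of these data known, so the shares over all probe sets are no test of this pattern. Without saline 6, the median log2 difference was -0.048 for secreted proteins, -0.031 for triglyceride genes, 0.00034 for lipolysis genes, -0.12 for transcription factors and 0.023 for genes of thermogenesis and oxidation.

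Genes of triglyceride uptake, synthesis and storage (21 tested, 18 lower and 3 higher with IL-13) had a median log2 difference of -0.32, and 17 were highest on saline 6. Gpd1, which makes the glycerol backbone of triglyceride, read 4830, 5736 and 4904 with IL-13 and 21772 and 3663 on saline 6 and saline 48. Its 5.94-fold range came mostly from saline 6 alone, and its log2 difference was -0.80 (SE 0.68, limma adjusted p 0.762) with all arrays and 0.49 without saline 6. Acly, which supplies acetyl-CoA for fatty acid synthesis, had a 3.52-fold range, and Elovl6, a fatty acid elongase, a 3.8-fold range, both highest on saline 6. The pyruvate carboxylase gene Pcx (2.88-fold), the gluconeogenic and glyceroneogenic enzyme gene Pck1 (3.08-fold) and the lipid droplet coat gene Plin4 (2.98-fold) were also highest there. A second probe set of Pcx, 162288_f_at, was instead lowest on saline 6 (236.1).

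Genes of lipolysis and its adrenergic control (10 tested, 9 lower and 1 higher) had a median log2 difference of -0.21, and 9 were highest on saline 6. Pnpla2, the enzyme that starts triglyceride breakdown, read 7571, 5918 and 5645 with IL-13 and 12340 and 7097 on saline 6 and saline 48. Mgll, which completes that breakdown, read 1477, 1485 and 1648 with IL-13 and 3012 and 1830 on saline 6 and saline 48, with no overlap of treatments. The lysosomal lipase gene Lipa likewise had all IL-13 arrays (372.5 to 576.5) below saline 6 and saline 48 (797.8 and 646.0). The lipolysis inhibitor gene G0s2 had a 3.03-fold range, the protein kinase A subunit gene Prkaca a 1.85-fold range and the G protein gene Gnas a 1.71-fold range, each highest on saline 6.

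Genes of thermogenesis and fatty acid oxidation (23 tested, 20 lower and 3 higher) had a median log2 difference of -0.29, and 18 were highest on saline 6. Kcnk3, a potassium channel gene of brown fat, heart and other tissues, read 125.4, 121.8 and 106.8 with IL-13 and 374.1 and 245.6 on saline 6 and saline 48. It had the largest log2 difference with IL-13 of these lists, -1.36 (SE 0.23, limma adjusted p 0.201), with no overlap of treatments. Kcnk3 was dim, however, and passed the filter on low values only through saline 6 and saline 48. Its inclusion in the test thus depended on the arrays where it was high, which limits what its direction shows. With the floor at the pooled 40th percentile the difference was -0.53. Pdk4, which spares glucose when fat is burned, read 5806, 3257 and 4849 with IL-13 and 11596 and 5626 on saline 6 and saline 48. The carnitine carrier gene Slc25a20 (2.63-fold range), the acyl-CoA dehydrogenase genes Acadm (2.46-fold) and Acadl (2.4-fold) and the uncoupling protein gene Ucp3 (2.25-fold) were highest on saline 6 as well. Adipocyte transcription factors (18 tested, 14 lower and 4 higher) had a median log2 difference of -0.20 and narrower ranges, and 8 were highest on saline 6. Cebpd, an early factor of adipocyte formation, read 1790, 1957 and 1976 with IL-13 and 3119 and 2521 on saline 6 and saline 48, with no overlap, and Cebpb ranged 1.83-fold. The genes Klf5 (1.82-fold), Gata3 (2.69-fold), Nrip1 (1.79-fold) and Lmo4 (1.8-fold) had other leading arrays, saline 48 for the first 3 and IL-13 6 for Lmo4.

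Secreted proteins of adipocytes (7 tested, 5 lower and 2 higher) had a median log2 difference of -0.41, and 4 were highest on saline 6. Leptin did not share the order of adiponectin. Lep, the satiety hormone of white fat, read 1948, 1387 and 1076 on IL-13 6, 18 and 48, and 931.7 and 1123 on saline 6 and saline 48, so saline 6 was its lowest array. A second Lep probe set, 98444_g_at, was dim, from 84.9 to 124.5. Retn, the adipocyte hormone resistin, read 580.7, 411.9 and 451.5 with IL-13 and 771.7 and 559.2 on saline 6 and saline 48, with overlap. The retinol carrier gene Rbp4 (2.59-fold range) and Angptl4, an inhibitor of Lpl (1.68-fold), were highest on saline 6. Among other tested probe sets of Angptl4, 102114_f_at was highest on saline 6 (703.8). The probe set 96118_at was instead highest on IL-13 18 (366.7, against 362.0 on saline 6). The NAD enzyme gene Nampt (2.84-fold) was highest on IL-13 6 and the vessel growth factor gene Vegfa (2.14-fold) on IL-13 48.

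**Figure D4:**
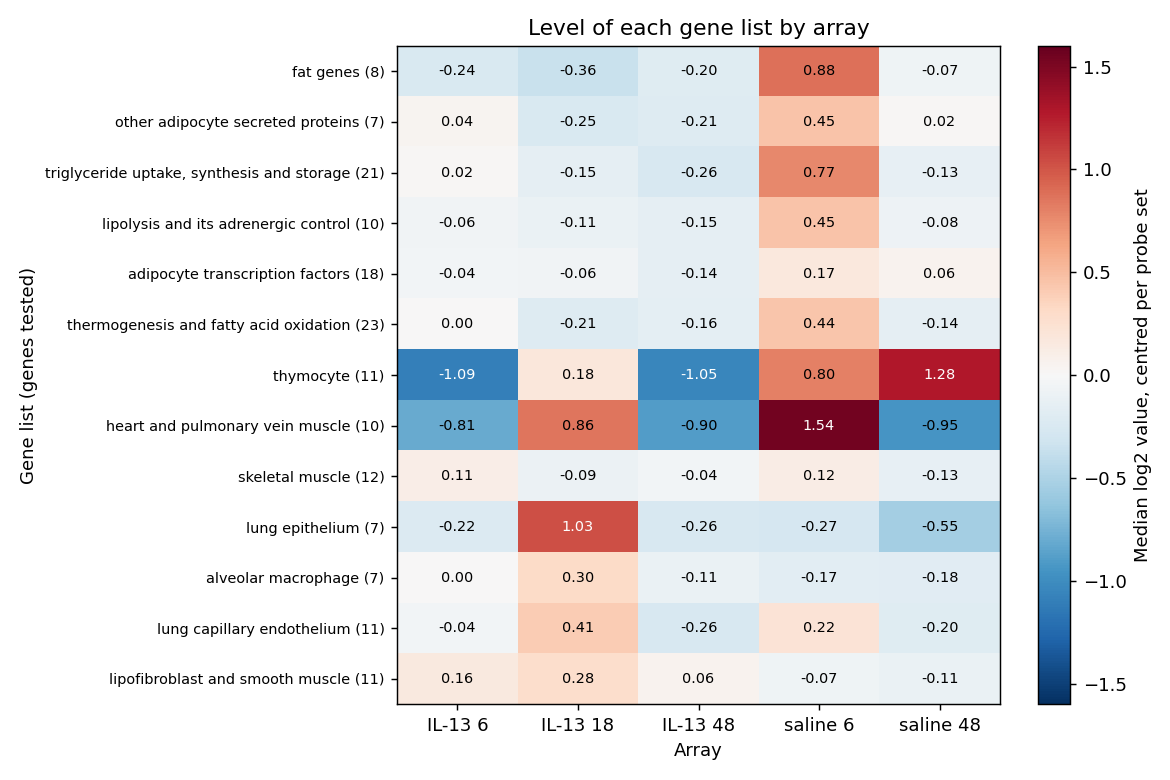
Median log2 value of each gene list but salivary gland on each array, centred per probe set over the 5 arrays. Each gene has 1 probe set, and the number of genes tested is in brackets (red higher, blue lower). The fat genes (0.88) and the 5 lists of fat metabolism have their highest value on saline 6. So do heart and pulmonary vein muscle (1.54) and skeletal muscle (0.12, beside 0.11 on IL-13 6). The salivary gland list, not drawn, is also highest there (4.49, 3 genes tested). Lung epithelium (1.03) is highest on IL-13 18, as are alveolar macrophage, lung capillary endothelium, and lipofibroblast and smooth muscle genes. Thymocyte genes are highest on saline 48 (1.28).

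The transcripts whose profile over the 5 arrays was most like that of Ucp1 (99507_at) were sought by the root mean square difference of centred log2 values, among 7061 probe sets of other genes. The nearest 8 were Bckdha (0.0442), a subunit of branched-chain amino acid breakdown, Cd74 (0.0636), the invariant chain of antigen presentation, Pdcd4 (0.0785), the triglyceride enzyme gene Dgat1 (0.0813), Mgll (0.0835), the translation repressor gene Eif4ebp1 (0.0902), the peptide transporter gene Tap1 (0.091) and H2-Aa (0.0936), a class II histocompatibility chain. Bckdha read 866.6, 863.1 and 943.3 with IL-13 and 2144 and 1057 on saline 6 and saline 48, so it shared the high value on saline 6. Cd74 read 6785, 6868 and 7150 with IL-13 and 15206 and 9007 on saline 6 and saline 48, the same order of arrays as Ucp1. Of the other members, Adipoq ranked 18th (0.125), Cidea 26th (0.145), Lpl on 95611_at 28th (0.149) and Lipe 74th (0.2). Pparg ranked 179th (0.254) and Fabp4 570th (0.34), and the farthest were Cidec at 3179th (0.511) and Lpl on 160083_at at 3418th (0.522). For Adipoq, the nearest 8 of 7062 were Apoc1 (0.0641), H2-M2 (0.066), the peroxisome gene Pex11a (0.0683), Tubb2a (0.0723), the kinase gene Snrk (0.0822), the tyrosine breakdown enzyme gene Fah (0.0852), Dgat1 (0.0871) and Eif4ebp1 (0.0876). Dgat1 and Eif4ebp1 stood in both sets of 8. With 5 arrays and a profile led by saline 6, these distances describe the arrays and carry no test.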

How the data were processed

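Total RNA of 5 samples labelled as murine lung was measured. The authors deposited 1 table of linear intensity values for 12488 probe sets; how signals were extracted, background-corrected or scaled is not stated in the labels or file headers. After removal of 66 manufacturer controls, 12422 probe sets were kept. The platform annotation pairs 10833 of them with exactly 1 gene symbol, 396 with several and 1193 with none, and symbols were updated by gene number through RefSeq. Each array was multiplied to equal 2% trimmed means, which changed the deposited columns little, and array medians were 324.7 to 358.3. A floor was set at the 20th percentile of all arrays pooled (55.3) before log2 conversion. Testing required a value over 210, the 40th percentile of the pool, on 2 or more arrays, and 7811 probe sets met this. The test was two-sided: limma (3.58.1, R 4.3.3) fitted treatment alone, with moderated errors (SE) and Benjamini-Hochberg adjustment, and was first tested on simulated data. Pair counts of 2-fold also needed the higher value above 343, the pooled median. A listed gene is represented by its brightest probe set. Named genes were all members, up to 6 genes of each other list with the widest range, the cell type markers and the 8 nearest profiles of Ucp1 and of Adipoq. The members and lists were chosen with earlier results of these data known. Alternatives were other scalings, floors, filters, variance settings, thresholds and controls, title number as a block, and leaving out each array. Precision is limited by the 5 arrays. Plots used matplotlib 3.10.9.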

Additional observations from a re-analysis of the deposited data

Results flagged for a closer look

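For 3 members the pairs at title numbers 6 and 48 pointed opposite ways, with 1 array of each treatment in each pair. Cidea differed by -1.56 on the log2 scale between IL-13 6 and saline 6 and by 0.035 between IL-13 48 and saline 48. Fabp4 differed by -0.40 at 6 and 0.16 at 48, and Pparg by -0.70 at 6 and 0.027 at 48. Whether the pairs differ was not tested. At 48 the 3 differences were small, and saline 6, the control of the pair at 6, was the highest of all 5 arrays for each of these genes.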

How the results depend on the processing

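No fat gene probe set passed the limma test under any of the 13 alternatives (the filter at the 60th percentile kept 9 of the 10). Among the alternatives that kept both saline arrays, the lowest limma adjusted p of a member was 0.330, with trend and robust settings. Under these alternatives 1 to 6 members had an unadjusted limma p below 0.05. So had 461 to 1086 of all probe sets tested, which numbered 5274 to 12422. The members' median log2 difference was negative under every alternative, from -0.72 to -0.65 with other scalings, floors, filters, trend and robust settings. It was -0.71 with title number as a block over 4 arrays, and that block changed no member's call. Leaving out 1 array gave -1.13 (without saline 48) to -0.26 (without saline 6), and 10 to 6 members with all IL-13 arrays below all saline arrays, a count added after the data were seen. Over the same settings the log2 difference of Fabp4 was -0.31 to 0.087 and that of Gpd1 -2.08 to 0.49, both above 0 without saline 6. In the pair at 6, the count of members at least 2-fold apart (5) became 8 at 1.5-fold, 0 at 3-fold and 1 with saline 48 as control, where Cidec was at 0.22. In the pair at 48 (0) it became 2 at 1.5-fold and 6 with saline 6 as control, and between the saline arrays (3) it became 9 at 1.5-fold and 0 at 3-fold. Shares over all probe sets were counted at 2-fold alone, so the counts at 1.5-fold and 3-fold have no background beside them. Over all probe sets, the 4 calls became 0 when the floor was the 10th or the 40th percentile, with no filter, trend and robust settings or the block (578 to 1086 had an unadjusted p below 0.05), 1 with the filter at the 60th percentile, and 0 to 13 leaving out 1 array. The causes were not tested. With only 2 saline arrays, leaving out either moved the median of the fat genes by more than any other setting.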
